A study of Mus musculus with 6 samples.

Results

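The 1924 autosomal PPARγ binding regions of mouse macrophages were placed relative to macrophage domains of acetylated histone H3 lysine 9 (H3K9Ace). They are all regions of the final macrophage PPARγ list of 1961 except 23 on chromosome X and 14 on chromosome Y, and the 6 main lists of the series hold 163892 regions together. Each region was called inside a domain when it lay wholly within it, touching when it shared at least 1 bp with a domain but crossed its edge, and otherwise by the distance to the nearest domain edge (up to 1 kb, 1 to 5 kb, 5 to 50 kb, or beyond 50 kb). The regions come from ChIP-seq, in which DNA bound by a protein is precipitated with an antibody and sequenced. The macrophages were thioglycollate-elicited peritoneal cells of male C57BL/6 mice, obtained by lavage 3 days after 1 ml of 3% thioglycollate, an irritant that recruits inflammatory cells, and harvested after 24 h of adherence. Every run used a pool of cells from 4 or more mice. The PPARγ library joined the reads of its pair of runs, whereas the libraries of H3K9Ace, PU.1 and C/EBPβ had 1 run each. The adipocyte lists used for comparison came from 3T3-L1 cells, a mouse preadipocyte line, after differentiation. The description field of every record names PPARγ, and the targets were taken from the titles and the antibody field.

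PPARγ is a nuclear receptor that binds DNA as a heterodimer with RXR and is activated by lipid ligands. In macrophages it acts on lipid handling and inflammatory genes. PU.1 is the ETS-family factor that specifies myeloid cells, and C/EBPβ is a leucine-zipper factor of both the myeloid and the fat cell lineage. Acetylation of H3K9 is laid on nucleosomes of active promoters and enhancers, and DNA held by a transcription factor is often free of a nucleosome, so the mark is read from the nucleosomes beside the bound site.

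Each group is 1 library, with no replicates, and the number of reads behind it is unknown. Tests and 95% intervals therefore run over regions, count neighbouring regions as independent and cover counting error only. The autosomal H3K9Ace list held 36757 domains with a median width of 1050 bp, from 500 to 22400 bp, and covered 52.3 Mb or 2.12% of the autosomes. PPARγ regions had a median width of 318 bp, against 239 bp for PU.1 and 275 bp for C/EBPβ. No genome of the authors' build, mm8, was used here, so neither genes nor sequences are given for the regions.

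Most macrophage PPARγ regions were in or at an acetylated domain. Inside a domain lay 879 of the 1924 regions, 45.7% (95% Wilson interval 43.5 to 47.9), and a further 251, 13.0% (11.6 to 14.6), touched an edge. The other 794 regions shared no base with a domain, but 211 of them, 11.0% of the list (9.65 to 12.4), lay within 1 kb. Another 229 regions (11.9%, 10.5 to 13.4) were 1 to 5 kb away, and 285 (14.8%, 13.3 to 16.5) were 5 to 50 kb away. Only 69 regions, 3.59% (2.84 to 4.51), lay beyond 50 kb. The median distance of the unacetylated regions was 3.90 kb, with quartiles of 0.914 and 13.9 kb and a maximum of 1513 kb.

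The placement was compared with 1000 evenly spaced circular shifts of the PPARγ list within each chromosome. Shifted lists had on average 1.66% of regions inside (0.676 to 4.83), 1.08% touching (0.364 to 3.07) and 2.58% within 1 kb (1.40 to 6.08). The observed shares were 27.6, 12.1 and 4.25 times those means, with a 1-sided permutation p of 0.001 for each, the smallest the shifts can give. The side of each shift test was taken from the data. Shifted regions could fall on any base of a chromosome, also where reads cannot be placed uniquely. The part of this in the ratios was not tested. At 1 to 5 kb the excess was 1.61 times (mean 7.39%, permutation p = 0.008). Farther away the list was sparser than its shifts, with 0.552 times the mean at 5 to 50 kb (26.8%) and 0.0593 times beyond 50 kb (60.4%), permutation p = 0.001 for both. With only domains of at least 1000 bp, the share at 5 to 50 kb was 21.6% and no longer below its shifts (permutation p = 0.109).

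**Figure D1:**
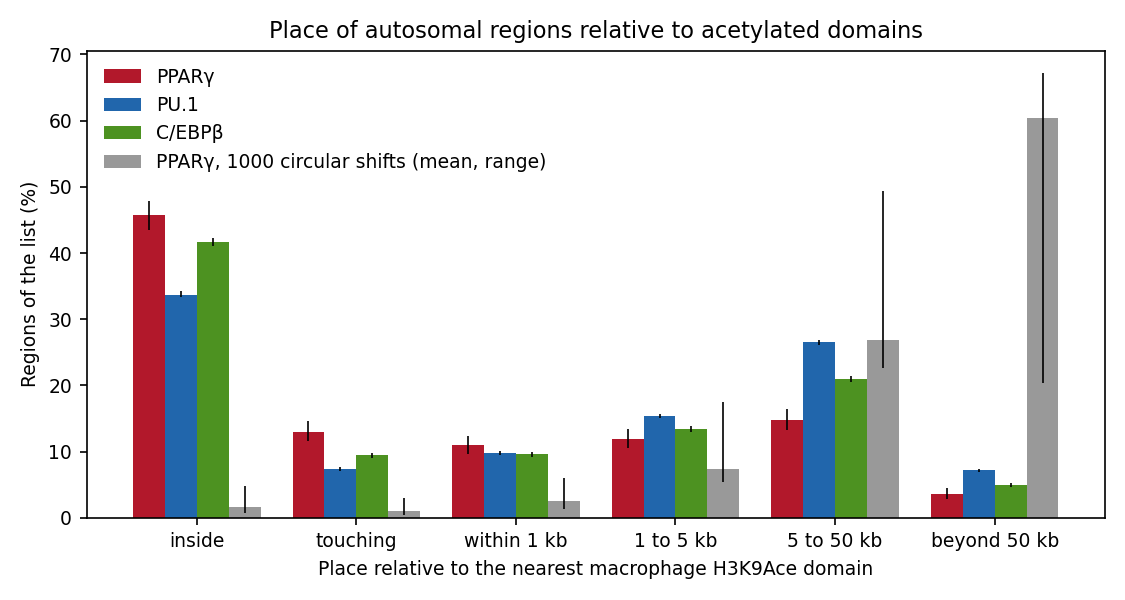
Share of the autosomal regions of each macrophage list (y axis, %) by place relative to the nearest macrophage H3K9Ace domain (x axis), with 95% Wilson intervals; grey bars are the mean and range of 1000 circular shifts of the PPARγ list. PPARγ had 45.7% of its regions inside and 13.0% touching, against 33.7% and 7.37% for PU.1, and its shifts had 1.66% and 1.08%.

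Regions of the final PPARγ list lay in and at acetylated domains more often than those of the macrophage factors mapped beside it, an order that did not hold for the longer PPARγ list. Inside lay 33.7% of 45485 PU.1 regions and 41.6% of 24024 C/EBPβ regions. The odds for PPARγ were 1.65 times those of PU.1 (1.50 to 1.81, adjusted p = 4.33e-25 by Fisher's exact test) and 1.18 times those of C/EBPβ (1.08 to 1.30, adjusted p = 0.00159). Edges were touched by 7.37% of PU.1 and 9.42% of C/EBPβ regions, and PPARγ had 1.89 and 1.44 times their odds (1.64 to 2.17 and 1.25 to 1.66, adjusted p = 1.75e-16 and 2.98e-06 by Fisher's exact test). PPARγ regions were also the widest of the 3 lists, and a wide region crosses an edge more easily. By centres alone, which ignores width, 53.5% of PPARγ, 38.1% of PU.1 and 47.3% of C/EBPβ regions lay in a domain (odds ratios 1.87 and 1.28, adjusted p = 1.11e-40 and 1.76e-07 by Fisher's exact test). Against domains of at least 2000 bp alone, the ratios for touching were 1.26 to PU.1 and 1.03 to C/EBPβ, and that for inside 1.13 to C/EBPβ, and none of these passed the threshold (adjusted p = 0.336, 0.838 and 0.0818 by Fisher's exact test). The lists differ in length, and its part in these shares was not tested. The longer macrophage PPARγ list reaches down to a fold of 2.15 and a peak height of 5, where the final list stops at 5 and 9. Its false discovery rate goes up to 9.67%, against 0.240%, and its highest fold is 36.8, against 23.3. Its regions have a median width of 213 bp, against 318 bp. The part of each of these in the changes with that list was not tested. In the longer list 33.3% of 18128 regions lay inside and 1450 touched an edge. The odds ratios for inside were then 0.979 to PU.1 (0.943 to 1.02, adjusted p = 0.349 by Fisher's exact test) and 0.700 to C/EBPβ (0.673 to 0.729, adjusted p = 5.27e-67). Those for touching were 1.09 to PU.1 and 0.836 to C/EBPβ (adjusted p = 0.0135 and 1.26e-06 by Fisher's exact test).

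The domains whose edges PPARγ touched had the same median width as all domains, 1050 bp. The widest domain touched was under 1 kb for 94 regions (37.5%) and 1 to 2 kb for 130 (51.8%), where 43.1% and 36.3% of all domains have these widths. In the median touching region 59.5% of the bases were acetylated (quartiles 34.6 and 81.3), and in 151 of 251 (60.2%) the centre lay in the domain. Only 7 of them bridged more than one domain. Touching regions were also the widest of the 6 classes, with a median of 407 bp.

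Unacetylated PPARγ regions sat in short gaps between neighbouring domains more often than the other factors did. Of the 794, 39 lay in a gap of at most 2 kb, 4.91% (3.61 to 6.64), although such gaps hold 0.288% of the unacetylated bases. The shares of unacetylated PU.1 and C/EBPβ regions were 1.86% (499 of 26785) and 2.32% (273 of 11774). The odds ratios for PPARγ were 2.72 against PU.1 (1.90 to 3.81, adjusted p = 3.15e-07 by Fisher's exact test) and 2.18 against C/EBPβ (1.50 to 3.08, adjusted p = 4.49e-05). With gaps of at most 1000 bp the ratio to C/EBPβ was 1.67 and no longer passed the threshold (adjusted p = 0.111 by Fisher's exact test). In the narrow gaps 20 of 39 PPARγ regions carried PU.1 and 19 carried C/EBPβ, and 1 was also bound by PPARγ in adipocytes. These shares, 51.3%, 48.7% and 2.56%, compare with 64.5%, 60.7% and 11.1% of all 1924 regions. For the 172 other regions within 1 kb of a domain they were 64.0%, 53.5% and 5.23%. The differences were not tested.

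For regions wholly inside a domain, the position was measured as a share of the room that the domain leaves, the domain width minus the region width. Even placing puts 50% of regions into the central 50% of that room. Over all widths 481 of 879 regions lay there, 54.7% (51.4 to 58.0, 2-sided exact binomial test, adjusted p = 0.0141 over 5 tests). By width, an excess was found in domains of 2 to 4 kb, where 212 of 310 regions were central, 68.4% (63.0 to 73.3, exact binomial test, adjusted p = 4.27e-10). In domains of 1 to 2 kb 47.6% were central (168 of 353, 42.4 to 52.8), in those under 1 kb 49.1% (28 of 57, 36.6 to 61.7), and in those of 4 kb and wider 45.9% (73 of 159, 38.4 to 53.7). None of these 3 classes differed detectably from even placing (adjusted p = 0.493, 1.00 and 0.493 by the exact binomial test). Among the upper 50% of regions by the authors' fold, the widest domains had 36.6% central, below even placing (exact binomial test, adjusted p = 0.0330).

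Across the 2 to 4 kb domains the regions were thin near the edge and dense near the centre. Dividing the way from edge to centre into 5 equal parts, the outermost held 12.6% of the 310 regions and the next 9.68%. The middle part held 20.6%, and the innermost pair held 28.7% and 28.4%. In domains of 1 to 2 kb all 5 parts held 18.7% to 21.2% of 353 regions. In the widest domains the outermost part held 13.8% of 159 regions and the others 17.0% to 23.9%.

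A second reading shifted PPARγ centres along the joined acetylated bases of each chromosome, so that shifted centres stay in domains. Of the 1030 centres in a domain, 61.6% lay in the central 50% of its width. The shifts gave a mean of 50.1% and a range of 45.3 to 56.0 (permutation p = 0.001, the smallest they can give). Read by centres over domain width, domains of 1 to 2 kb had 57.9% central (exact binomial test, adjusted p = 0.00191). That reading takes in touching regions and also replaces the scaling by the room left, and the changes were not separated. Under the same shifts PPARγ centres were rarer in domains under 1 kb (10.1% against a mean of 21.3%) and commoner in those of 1 to 2 kb (42.6% against 34.0%) and of 4 kb and wider (16.1% against 11.6%), with a permutation p of 0.001 for each. The share in domains of 2 to 4 kb, 31.2%, lay within the range of the shifts (27.0 to 38.3, permutation p = 0.117). Contained regions of the other factors were also few in domains under 1 kb, 1559 of 15349 for PU.1 and 848 of 9988 for C/EBPβ. These shifts were made for PPARγ only. Whether its spread over domain widths is particular to PPARγ was therefore not tested.

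**Figure D2:**
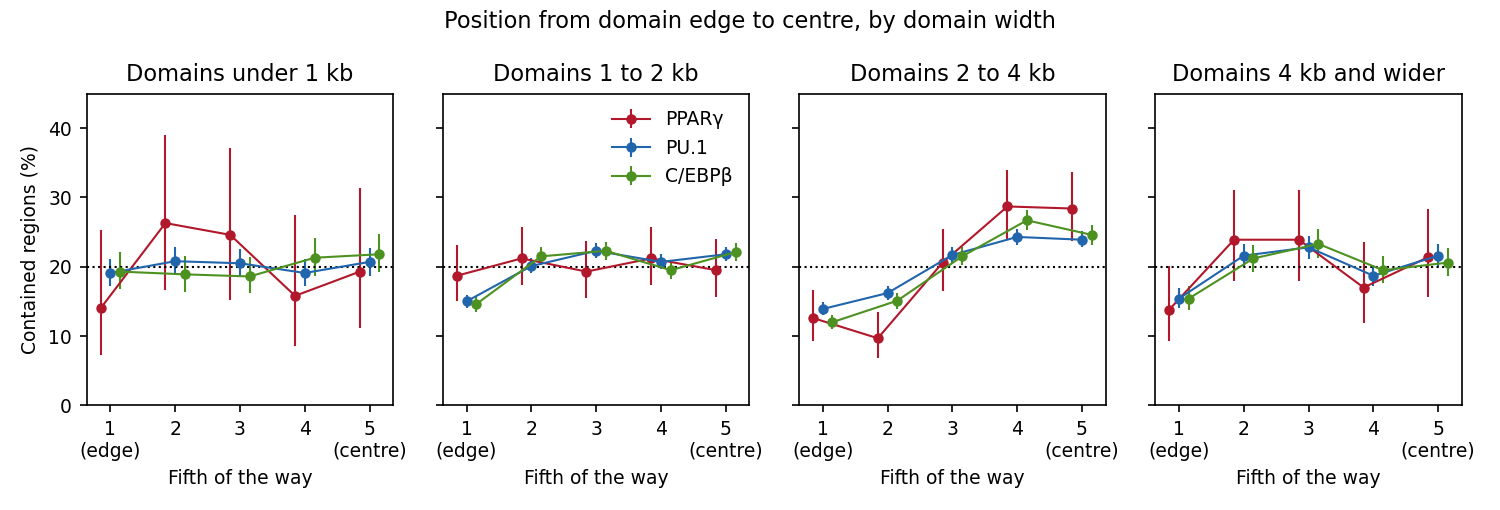
Share of contained regions (y axis, %) in 5 equal parts of the way from domain edge to domain centre (x axis) for 4 domain width classes, with 95% Wilson intervals; the dotted line at 20% is even placing. PPARγ rises from 12.6% at the edge to 28.4% at the centre in domains of 2 to 4 kb and stays between 18.7% and 21.2% in those of 1 to 2 kb.

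Measured in base pairs, PPARγ was thin in the outer 500 bp of domains of at least 2 kb. This measure and its bands were chosen after seeing the data. Of the 469 contained regions in such domains, 95 lay under 500 bp from the nearest edge, 20.3% where even placing gives 36.0%. From 500 to 1000 bp there were 215 regions, 45.8% against 32.6%. The ratio to even placing peaked at 750 to 1000 bp in both width classes. There, domains of 2 to 4 kb had 88 of 310 regions, 1.60 times even placing, and wider domains had 29 of 159, 1.90 times. From 250 to 500 bp the ratios were 0.507 (35 regions) and 0.394 (6 regions). Median distances to the nearest edge were 718 bp in domains of 2 to 4 kb and 1343 bp in wider ones.

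PU.1 and C/EBPβ were also thin in the outer 500 bp. There, in domains of at least 2 kb, lay 25.9% of 8033 PU.1 and 23.7% of 5319 C/EBPβ regions, 0.729 and 0.661 times even placing. From 500 to 1000 bp there were 41.3% and 42.7%. None of the 12 tests of PPARγ against a factor in these bands passed the threshold after adjustment. The lowest adjusted p, 0.0772, belonged to the outer 500 bp against PU.1, where the odds ratio was 0.726 (0.570 to 0.917). Among the upper 50% of PPARγ regions by the authors' fold, 51.9% lay at 500 to 1000 bp (odds ratio 1.54 to PU.1 and 1.45 to C/EBPβ, adjusted p = 0.00283 and 0.00654 over these 2 by Fisher's exact test). In the longer PPARγ list the share was 36.2%, and the odds ratios turned to 0.808 and 0.760 (adjusted p = 3.25e-07 and 1.82e-09 by Fisher's exact test). With domains joined across gaps of up to 1000 bp they were 0.980 and 0.925.

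**Figure D3:**
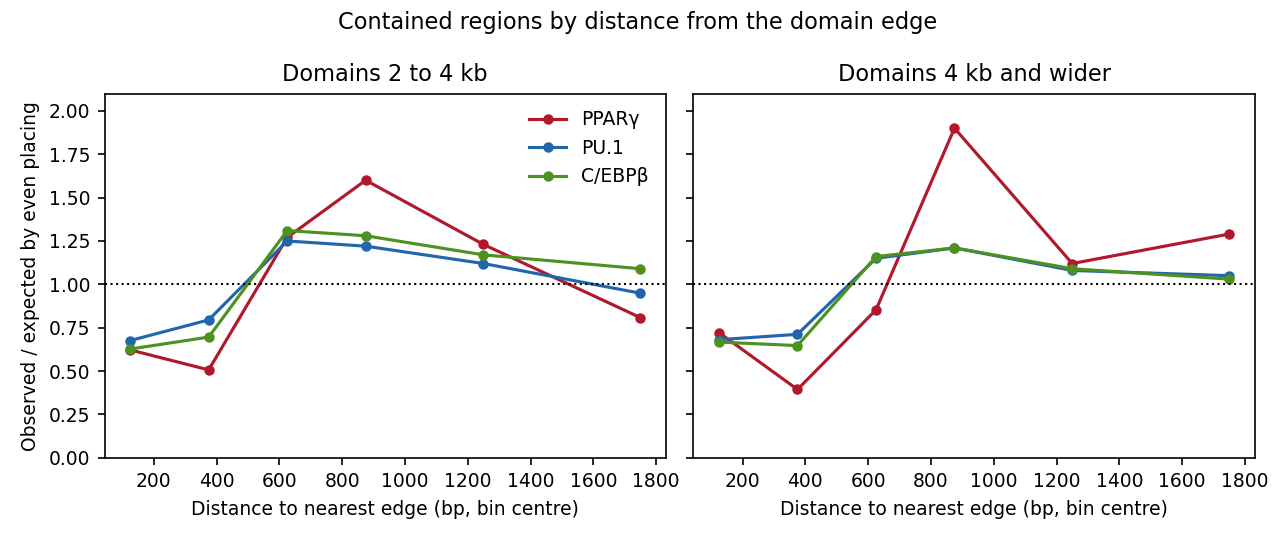
Number of contained regions over the number that even placing gives (y axis, ratio) by distance to the nearest domain edge (x axis, bp, bin centres), for domains of 2 to 4 kb and for wider ones; regions over 2000 bp from an edge are not drawn. PPARγ peaks at 750 to 1000 bp with 1.60 and 1.90, where PU.1 has 1.22 and 1.21 and C/EBPβ 1.28 and 1.21. This bin was named because PPARγ is highest there, and it was not tested against the factors. Several PPARγ bins of the wider domains hold few regions (11, 6 and 13 in the first 3), as does the last bin of the narrower ones (4).

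By relative position the final PPARγ list was more central than PU.1 in domains of 2 to 4 kb, and the longer list less central. There 59.6% of 5662 PU.1 regions were central, and the odds for PPARγ were 1.47 times higher (1.14 to 1.89, adjusted p = 0.00544 by Fisher's exact test). C/EBPβ, with 63.6% of 3694 regions central, did not differ detectably from PPARγ (odds ratio 1.24, 0.960 to 1.60, adjusted p = 0.193 by Fisher's exact test). Over all widths PU.1 had 54.9% and C/EBPβ 56.2% central, and neither differed detectably from PPARγ (odds ratios 0.992, 0.864 to 1.14, and 0.942, 0.819 to 1.09). The other width classes gave no call either, with adjusted p from 0.0986 to 0.917. In the longer list 54.2% of 2266 regions in domains of 2 to 4 kb were central, and the odds ratios were 0.804 to PU.1 and 0.678 to C/EBPβ (adjusted p = 4.10e-05 and 6.36e-12 by Fisher's exact test). In the upper 50% by fold the share was 71.1% and the ratios 1.67 and 1.41 (adjusted p = 0.0176 and 0.118 by Fisher's exact test). The upper 50% was less central than the factors in the widest domains, with ratios of 0.559 and 0.549 (adjusted p = 0.0263 for both by Fisher's exact test).

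No mark detectably set the central regions apart from the outer ones. In domains of 2 to 4 kb 68.7% of regions with PU.1 and 67.7% of those without were central, and 70.8% with C/EBPβ against 63.4% without. Regions shared with adipocyte PPARγ were central in 34 of 50 cases, 68.0%, and the others in 68.5%. None of 25 tests over 4 marks, the authors' fold and the width classes passed the threshold after adjustment (Fisher's exact tests, lowest adjusted p 0.434). The lowest unadjusted p, 0.0173, was for fold in domains of 4 kb and wider. There 36.6% of the 82 regions above the list's median fold were central, against 55.8% of the other 77.

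The macrophage factors thinned out with distance from acetylated chromatin. PU.1 overlapped 623 of 879 PPARγ regions inside a domain, 70.9%, and 74.5% of those touching an edge. Its share was 61.6% within 1 kb, 58.5% at 1 to 5 kb, 51.6% at 5 to 50 kb and 29.0% beyond 50 kb (20 of 69). C/EBPβ lay at 67.9% inside, 76.1% touching, 52.6%, 52.0%, 44.9% and 31.9% in the same order. All 4 classes without acetylation differed from inside for both factors. Odds ratios ran from 0.659 (0.477 to 0.915) within 1 kb to 0.168 (0.0927 to 0.295) beyond 50 kb for PU.1 (Fisher's exact tests, adjusted p = 0.0135 and 2.51e-11), and from 0.524 to 0.221 for C/EBPβ (adjusted p = 7.19e-05 and 1.21e-08). Region width fell along the same order, from medians of 339 bp inside to 295, 294, 249 and 205 bp, and its part in the overlaps was not tested. With centres within 500 bp in place of overlap, these 8 differences kept direction and call. In the upper 50% by fold the differences at the nearest classes did not pass the threshold. Within 1 kb and at 1 to 5 kb the ratios were then 0.668 and 0.825 for PU.1 (adjusted p = 0.145 and 0.425 by Fisher's exact test) and 0.592 and 0.658 for C/EBPβ (adjusted p = 0.0579 and 0.121).

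C/EBPβ was commoner at touching than at inside regions (odds ratio 1.50, 1.08 to 2.11, adjusted p = 0.0159 by Fisher's exact test). The call did not hold with centres within 500 bp (Fisher's exact test, odds ratio 1.27, adjusted p = 0.201), in the upper 50% by fold (1.30, adjusted p = 0.341) or in the longer list, where the ratio was 0.943. For PU.1 the touching class did not differ detectably from inside (odds ratio 1.20, 0.865 to 1.68, adjusted p = 0.297 by Fisher's exact test). Regions with both factors made up 54.3% of those inside, 60.6% of those touching and 11.6% of those beyond 50 kb. Those with neither made up 15.5%, 9.96% and 50.7%.

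**Figure D4:**
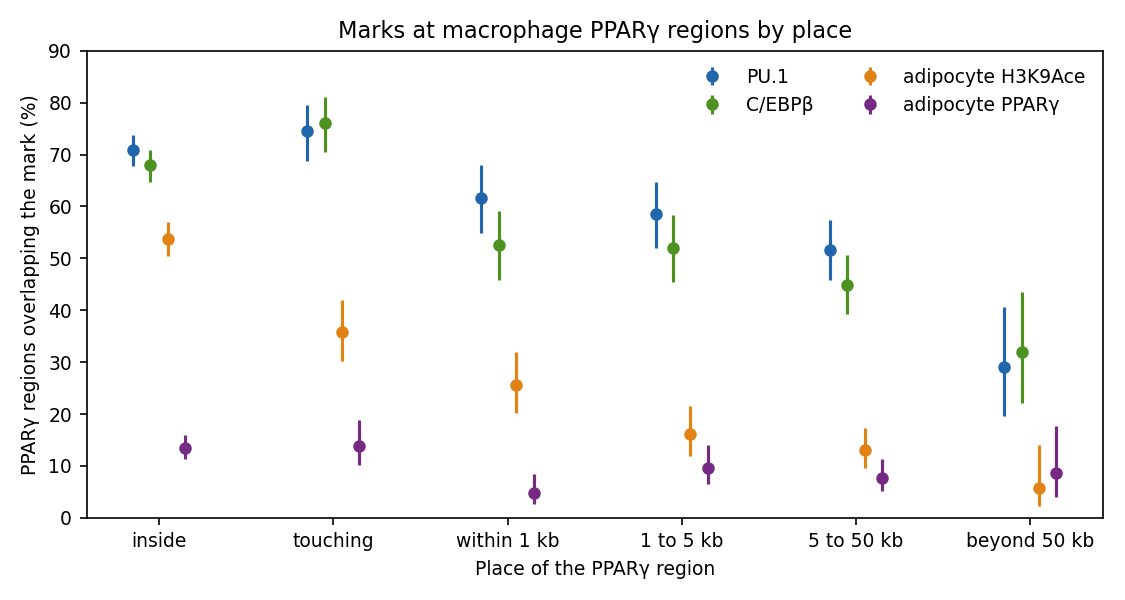
Share of macrophage PPARγ regions overlapping macrophage PU.1, macrophage C/EBPβ, adipocyte H3K9Ace or adipocyte PPARγ (y axis, %) by place relative to macrophage H3K9Ace (x axis), with 95% Wilson intervals. PU.1 goes from 70.9% inside to 29.0% beyond 50 kb and adipocyte H3K9Ace from 53.7% to 5.80%.

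Acetylation of the same place in adipocytes also became rarer with distance. Inside macrophage domains 472 of 879 PPARγ regions overlapped adipocyte H3K9Ace, 53.7%, against 36.1% of all 1924. At the edges it was 35.9% (90 of 251), and in the classes away from domains 25.6%, 16.2%, 13.0% and 5.80% (4 of 69). Each class differed from inside, with odds ratios of 0.482 (0.356 to 0.650) for touching, 0.297, 0.166, 0.129 and 0.0531 (Fisher's exact tests, adjusted p from 1.88e-35 to 1.56e-06). Touched domains were under 1 kb for 37.5% and 1 to 2 kb for 51.8% of touching regions, against 6.48% and 40.2% of inside ones. The part of domain width and of region width in these differences was not tested. The share of all macrophage domains acetylated in adipocytes is not given here. Whether the shares are particular to PPARγ regions was therefore not tested.

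Sharing with adipocyte PPARγ was rarer just outside the domains than inside them. Adipocyte PPARγ overlapped 13.5% of inside regions (119 of 879) and 13.9% of touching ones (35 of 251, odds ratio 1.03, 0.668 to 1.57, adjusted p = 0.917 by Fisher's exact test). Within 1 kb of a domain only 10 of 211 regions were shared, 4.74%, 0.318 times the odds inside (0.146 to 0.620, adjusted p = 3.28e-04 by Fisher's exact test). At 5 to 50 kb it was 7.72% (odds ratio 0.534, 0.316 to 0.869, adjusted p = 0.0126 by Fisher's exact test). The 9.61% at 1 to 5 kb and the 8.70% beyond 50 kb (6 of 69) were not detectably below inside (odds ratios 0.679, 0.400 to 1.11, and 0.608, 0.210 to 1.44). With the longer list those ratios were 0.491 and 0.181 and passed the threshold (adjusted p = 6.53e-06 and 1.93e-09 by Fisher's exact test).

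Within the 879 contained regions, those in wide domains were more often acetylated in adipocytes, with no detectable difference in the factors. The adipocyte shares of all macrophage domains by width are not given here. Whether the rise with width is particular to PPARγ regions was therefore not tested. Adipocyte H3K9Ace overlapped 28.1% of the regions in domains under 1 kb, 40.8% in those of 1 to 2 kb, 62.6% in those of 2 to 4 kb and 74.2% in wider ones. In a test added after seeing the data, domains of at least 2 kb had 66.5% and narrower ones 39.0%, an odds ratio of 3.11 (2.33 to 4.13, adjusted p = 1.16e-15 by Fisher's exact test over 4 marks). PU.1 lay at 70.4% and 71.5% (odds ratio 0.948, 0.700 to 1.28), C/EBPβ at 69.9% and 65.6% (1.22, 0.909 to 1.64) and adipocyte PPARγ at 14.3% and 12.7% (1.15, 0.764 to 1.73), with adjusted p from 0.385 to 0.766.

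The strength of PPARγ regions, read as the authors' fold over a control, did not differ detectably between the classes. Median folds were 6.22 inside, 6.27 touching, 6.07 within 1 kb, 6.16 at 1 to 5 kb, 6.18 at 5 to 50 kb and 6.29 beyond 50 kb. The share above the list's median of 6.21 was 50.2% inside and 46.0% to 55.1% in the other classes, with adjusted p = 0.767 for all 5 Fisher's exact tests. By the authors' peak height 2 classes differed from inside. Its median was 15 in touching regions and 13 inside. The odds of a height above the list's median were 1.63 times higher for touching regions than for inside ones (adjusted p = 0.00382 by Fisher's exact test). At 5 to 50 kb they were 0.641 times as high as inside (adjusted p = 0.00397 by Fisher's exact test). Regions of lower fold are not in these tests. The longer list, with folds down to 2.15 and also higher false discovery rates, had 33.3% of its regions inside and 7.25% beyond 50 kb. In the final list these shares were 45.7% and 3.59%.

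Strong regions were found in every class. Inside, the highest fold, 23.3, belonged to a region on chromosome 9 at 61135699 to 61136036 in mm8, 414 bp from the edge of a 1.40 kb domain, with C/EBPβ but no PU.1. A region on chromosome 4 at 86161263 to 86161787 (fold 21.8) lay 1063 bp from the edge of a 2.85 kb domain, 91.4% of the way to its centre. It carried both factors and was bound by PPARγ in adipocytes, as was a region on chromosome 11 at 100819156 to 100819466 (fold 21.0), 506 bp from the edge of a 1.50 kb domain. The strongest touching regions were chromosome 2, 29594115 to 29594496, with a fold of 22.5, chromosome 12, 86274439 to 86275334, with 18.6, and chromosome 9, 108975527 to 108975913, with 17.9. All 3 carried PU.1, and the first 2 of them C/EBPβ. Over all touching regions the shares were 74.5% and 76.1%.

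Near misses of an edge were among the strongest regions within 1 kb. Those on chromosome 6 at 125006689 to 125007004 (fold 18.7) and chromosome 13 at 52587928 to 52588278 (17.8) missed a domain by 39 bp and 22 bp, less than the 50-bp grid on which domains start, and both carried both factors. The third, on chromosome 8 at 74497161 to 74497595 (16.9), lay 205 bp away with PU.1 alone. Over all regions within 1 kb PU.1 lay at 61.6% and C/EBPβ at 52.6%. At 1 to 5 kb the leading regions were on chromosome 10 at 66600257 to 66600642 (20.3, 1.26 kb away), chromosome 11 at 70001280 to 70001703 (17.4, 3.75 kb) and chromosome 6 at 65523803 to 65524077 (16.4, 1.30 kb). All 3 had PU.1.

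Of the strongest regions far from acetylation, all 6 carried C/EBPβ and 2 carried PU.1. Over the whole classes PU.1 lay at 51.6% and C/EBPβ at 44.9% of regions at 5 to 50 kb, and at 29.0% and 31.9% beyond. The 6 were picked by fold alone, and factors by fold were not tested within these classes. At 5 to 50 kb the strongest were on chromosome 5, 141266756 to 141267034 (fold 21.9, 13.4 kb away), chromosome 3, 51297632 to 51298033 (20.4, 12.8 kb) and chromosome 2 at 150587262 to 150587717 (16.3, 6.83 kb). All 3 carried C/EBPβ and the first 2 of them also PU.1. Beyond 50 kb the strongest were on chromosome 14 at 103222571 to 103222776 (22.1, 54.9 kb), chromosome 2 at 16600777 to 16600970 (16.6, 327 kb) and chromosome 13 at 58777989 to 58778182 (11.7, 286 kb). These 3 had C/EBPβ and no PU.1, none was acetylated in adipocytes, and that on chromosome 14 was bound by PPARγ there. At the distance limits, the members just inside and just outside lay at 0.990 and 1.00 kb, at 4.99 and 5.08 kb, and at 48.9 and 51.3 kb.

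Seen from the domains, few held PPARγ, and the wide ones did so most often. A PPARγ region overlapped 1081 of 36757 domains, 2.94% (2.77 to 3.12). The share was 0.953% (0.813 to 1.12) of domains under 1 kb, 3.56% (3.25 to 3.88) of those of 1 to 2 kb, 4.84% (4.34 to 5.39) of those of 2 to 4 kb and 13.1% (11.2 to 15.3) of wider ones. Per acetylated megabase, which takes out the larger target of a wide domain only in part, contained regions numbered 5.13, 19.9, 17.9 and 26.4 in the same order. Narrow domains leave less room for a whole region, which lowers these values the more, the narrower the domains. Regions touching an edge are not counted in them. The median width was 1750 bp for domains holding PPARγ and 1050 bp for those without. Whether the rise in share with domain width is particular to PPARγ was not tested.

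Within each width class, domains holding both PU.1 and C/EBPβ had PPARγ most often. Of 7177 domains with both factors 10.5% overlapped PPARγ (9.76 to 11.2), against 2.20% of 6741 with PU.1 alone, 3.74% of 2728 with C/EBPβ alone and 0.403% of 20111 with neither. In domains under 1 kb the shares were 7.21%, 1.54%, 4.56% and 0.153%. In domains of 2 to 4 kb they were 10.2%, 1.95%, 3.72% and 1.06%. Among the widest domains 16.5% of those with both factors held PPARγ (14.1 to 19.3), 5.88% of 204 with PU.1 alone and 5.36% of 56 with C/EBPβ alone. None of the 52 with neither did, for which the Wilson upper limit is 6.88%, and 3 domains of 52, the limit often set on a count of 0, are 5.77%. These are descriptions, since PPARγ regions themselves overlap the factors.

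**Figure D5:**
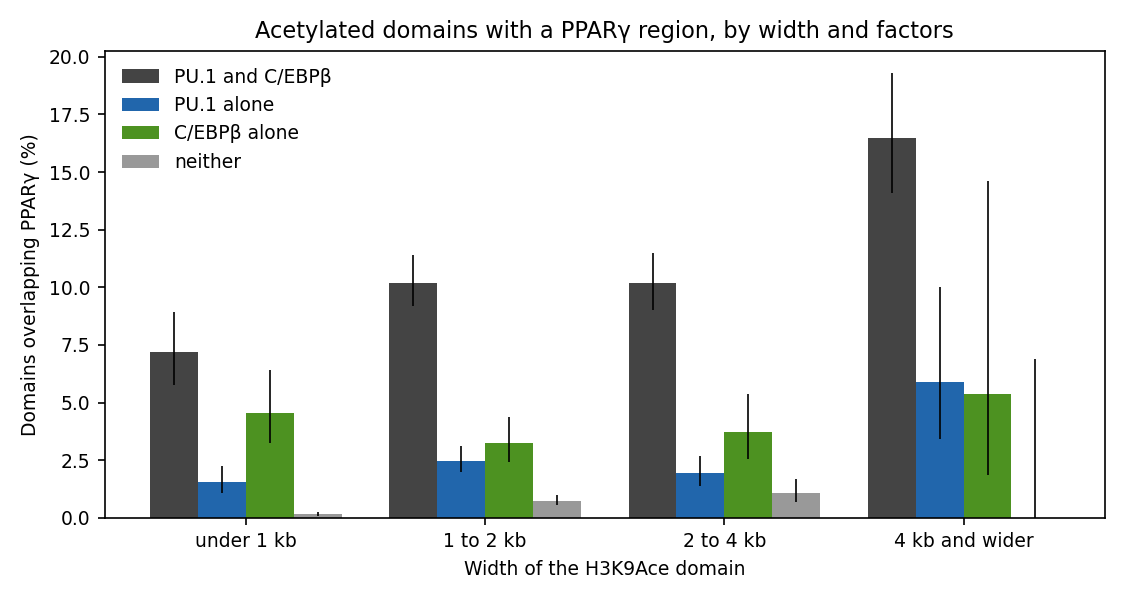
Share of macrophage H3K9Ace domains that overlap a PPARγ region (y axis, %) by domain width (x axis) and by the factors overlapping the domain (bars), with 95% Wilson intervals. Domains with both factors have the highest bar in each class, from 7.21% under 1 kb to 16.5% at 4 kb and wider.

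Most domains with a contained PPARγ region had a single one. This held for 805 domains, while 32 held a pair, 2 held 3 and 1 held 4. That with 4 was the widest of all, 22.4 kb on chromosome 7 at 142187751 to 142210150, whose PPARγ regions had folds of 5.10 to 13.4. Of its 4 regions 3 carried PU.1 and 3 C/EBPβ, and none was bound in adipocytes. The domains with 3 lay on chromosome 8 at 129734151 to 129739750 (5.60 kb, folds 5.06 to 14.8) and on chromosome 1 at 193120951 to 193123700 (2.75 kb, folds 5.07 to 9.75). All 3 domains were acetylated in adipocytes too. Adipocyte H3K9Ace overlapped 62.6% of all contained PPARγ regions in domains of 2 to 4 kb and 74.2% in wider ones. The share of all macrophage domains of these widths is not given here.

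The share of regions inside varied over the 19 autosomes from 32.6% on chromosome 18 (14 of 43, 20.5 to 47.5) to 53.5% on chromosomes 10 and 14. The share touching an edge ran from 8.45% on chromosome 14 to 22.6% on chromosome 19 (14 of 62). The Wilson intervals for inside on chromosomes 18, 10 (44.9 to 62.0) and 14 (42.0 to 64.6) overlap, and no test between chromosomes was made.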

How the data were processed

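Only the deposited region lists were analysed. Per the labels' protocols, the authors aligned 36-bp reads with ELAND to mm8, at most 2 mismatches allowed, and used only uniquely placed reads. Not given in the sources used here were the peak caller's settings and its control. Per the file headers, the PPARγ lists carry a fold (ratio) per region, a peak height (signal, no depth scaling stated) and a false discovery rate, read as a percent (0.24 throughout the final list). These values are the authors' own and were used only within their list. In the final autosomal list the fold was at least 5.00 and the height at least 9. Of the other deposited lists only positions were used. A deposited list of masked intervals and a longer adipocyte list were not used here. All macrophage H3K9Ace domains start on a 50-bp grid. The depth of every library is unknown.

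Repeated entries were counted once, and starts were treated as 0-based for every list. PPARγ coordinates are printed as deposited and domains 1-based. The end of a chromosome was the furthest region end in any list. Fisher's exact tests (2-sided, sample odds ratios, exact conditional 95% intervals) and 2-sided exact binomial tests were run in SciPy 1.17.1 (Python 3.11.15), with Benjamini-Hochberg adjustment over 14 tests against the factors, 20 of marks by position, 5 of fold, 5 of central position and 2 of gaps, at 0.05. Families of 12 (edge bands), 25 (central share by mark) and 4 (marks by domain width), the count by centres, and the factor comparisons with the longer list and the upper 50% by fold were added after seeing the data. Shares carry 95% Wilson intervals. Shift tests are 1-sided, on the side observed. Alternatives were the longer PPARγ list, the upper 50% by fold, centres, joined or wider domains, factor regions without PPARγ, peak height and shorter gaps. The placing code was tested on simulated data. Named regions are the 3 with the highest fold in each class, and named domains the 3 with the most PPARγ regions. The members, lists and tests were chosen with earlier results of these data known.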

Additional observations from a re-analysis of the deposited data

How the results depend on the processing

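Of 209 recomputed values, 151 kept direction and side of the threshold (for shares of domains, stayed within the reported interval). The 151 include values that their setting could not change, since a minimum domain width leaves the classes of wider domains as they are. No paired analysis was possible because each group is 1 library. Depth is unknown, which limits how far absence from a list means absence of binding. For the changes below the cause was not tested.

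Domains of at least 1000 bp: the share at 5 to 50 kb was 21.6%. Domains of at least 2000 bp: odds ratios of PPARγ were 1.26 to PU.1 and 1.03 to C/EBPβ for touching and 1.13 to C/EBPβ for inside, none past the threshold, and 1.17 and 1.04 for the central 50% over all widths, which turned upward. Scaling by centres gave 1.05 and 1.01 there and 1.09 and 1.13 in domains under 1 kb, also upward. Alternatives chosen after seeing the data moved these ratios further. The longer list gave, to PU.1 and C/EBPβ, 0.979 and 0.700 for inside and 0.804 and 0.678 for the central 50% in domains of 2 to 4 kb, all turned, 0.836 for touching to C/EBPβ, turned, and 0.881 and 0.837 for the central 50% over all widths, newly past the threshold. The upper 50% by fold gave 1.38 and 1.24 in domains under 1 kb and 1.04 to PU.1 over all widths, turned, and 0.559 and 0.549 in the widest domains, newly past the threshold.

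The central share in domains of 1 to 2 kb turned above 50% with the longer list (50.8%), centres (57.9%), joined domains (51.4%) and the upper 50% by fold (51.4%). In domains under 1 kb it did so with centres (58.7%) and the upper 50% by fold (58.6%), and in those of 4 kb and wider with centres (51.8%). In the last class it was 36.6% in the upper 50% by fold, past the threshold. In domains of 2 to 4 kb it stayed above 50% and past the threshold in all 6 alternatives. It fell from 68.4% to 54.2% with the longer list. Of the 6, the minimum domain width leaves domains of 2 to 4 kb unchanged, so it cannot test their share.

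For marks against inside regions, the longer list gave odds ratios of 0.913 (PU.1) and 0.943 (C/EBPβ) for touching, both turned, and for sharing with adipocytes 0.491 at 1 to 5 kb and 0.181 beyond 50 kb, both newly past the threshold. Centres within 500 bp gave 1.27 for C/EBPβ touching. The upper 50% by fold gave 0.668 and 0.825 for PU.1 within 1 kb and at 1 to 5 kb, and 1.30, 0.592 and 0.658 for C/EBPβ touching, within 1 kb and at 1 to 5 kb, all no longer past the threshold. Peak height in place of fold gave 1.63 touching and 0.641 at 5 to 50 kb, past the threshold, and 0.605 beyond 50 kb, turned.

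Domains holding PPARγ came to 3.33% over all widths, 0.797% under 1 kb and 3.04% at 1 to 2 kb once domains were joined across gaps of up to 1000 bp. With the longer list they were 16.2% over all widths and 5.78%, 18.2%, 30.0% and 61.8% by width class. Gaps of at most 1000 bp gave 1.67 against C/EBPβ. For 500 to 1000 bp from the edge, alternatives chosen after seeing the data gave odds ratios to PU.1 and C/EBPβ of 0.808 and 0.760 (longer list) and 0.980 and 0.925 (joined domains), all turned, and 1.54 and 1.45 (upper 50% by fold), past the threshold.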
